A study of Oryza sativa with 6 samples.

Results

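The genes described here were expressed in roots of well-watered rice and were at least 3 times as abundant at both times of soil-water deficiency (WD). They were chosen by their deposited FPKM (sequenced fragments of a transcript, scaled to its length and to the size of the library). An entry, which is 1 line of the deposited tables and mostly stands for 1 locus of the Rice Genome Annotation Project (RGAP), was taken if it named an RGAP locus, was over 4 FPKM in control, and had a ratio of WD to control of at least 3 after 2 d and after 3 d. It also had to lie in the first part of chromosome 1, 2, 3, 5, 6, 8 or 12, below 10.1, 6.0, 4.9, 7.4, 11.1, 11.4 and 5.1 Mb in that order. These limits took 76 of 63985 entries, or of 58337 that name a locus. Without the limit on position, 365 entries would have passed.

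Seedlings of the japonica rice cultivar Chilbo were grown in pots of soil for 4 weeks, then left without irrigation for 2 d or 3 d, and roots were collected for RNA-Seq. The groups were WD 2 d, WD 3 d and well-watered control, with 2 libraries each. No mutant or transgene was involved. The deposited tables hold 1 FPKM per group and entry, pooled over the 2 libraries by the authors, so values carry no error and the read depth of single libraries is unknown. For the same reason no difference below was newly tested, and the authors' deposited test results were not used. Both ratios of an entry share the same control value, so that a chance low control value would raise both. In whole roots, a higher FPKM from more cells of a type and one from more RNA per cell cannot be told apart.

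Roots in drying soil are known to take up less water, to adjust solutes, and to handle reactive oxygen and aldehydes formed under stress. Metal-binding proteins, glyoxalases and aldehyde dehydrogenases, protease inhibitors, zinc finger proteins and enzymes of amino acid breakdown are among the proteins long studied in plants under water stress. The 73 entries with an RGAP description in the sources used here were sorted by its words into these and further roles, with 15 whose description gives no function and 13 that fell under none of the roles. The other 3, LOC_Os05g04690, LOC_Os06g01195 and LOC_Os08g10500, had none.

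In the chromosome stretches examined, 2417 entries named a locus and were over 4 FPKM in control. A ratio of at least 3 was reached by 89 of them after 2 d (3.68%) and by 125 after 3 d (5.17%). Both were reached by the 76 entries described here (3.14%), while 13 reached the limit at 2 d alone and 49 at 3 d alone. Ratios of at most 1/3 at both times were found for 377 entries. Since the ratios chose the 76 entries, these counts are descriptive. The median log2 ratio of the 76 was 2.22 after 2 d and 2.47 after 3 d, beside -0.07 and -0.12 over all 2417. By ratio, the medians of the 76 were 4.66 after 2 d and 5.54 after 3 d, and the upper ends were 55.1 and 95.2.

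**Figure D1:**
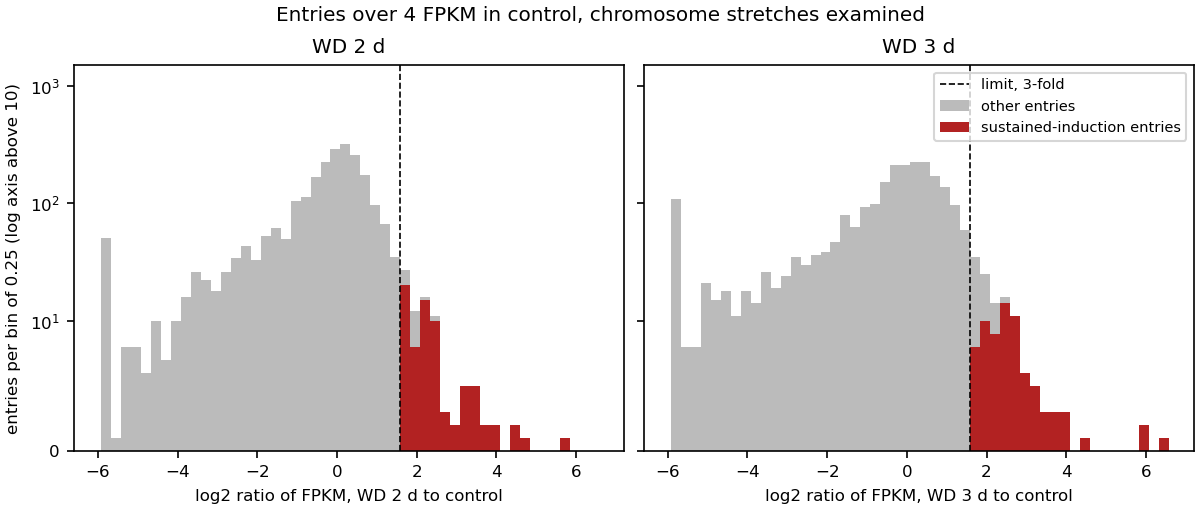
Number of entries (vertical axis, linear to 10 and logarithmic above) by log2 ratio of FPKM to control (horizontal axis) after 2 d (left) and 3 d (right) of WD, with the 76 sustained-induction entries in red, the other expressed entries in grey and a dashed line at the limit of 3-fold. The lowest bin also holds all lower ratios and entries listed at 0 under WD; the red part reaches log2 ratios of 5.78 after 2 d and 6.57 after 3 d.

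Most of the 76 entries stood below the middle of the expressed entries in control and near the top under WD. The ratio limits bear on these ranks and on the levels below, so they only describe the set. The median entry was at percentile 90.01 of the 2417 after 2 d and at percentile 89.8 after 3 d, against 39.2 in control. Their median FPKM was 65.5 after 2 d and 69.01 after 3 d, against 12.1 in control, where the median of all 2417 was 15.97. FPKM over 100 was reached by 22 entries after 2 d and by 30 after 3 d, against 4 in control. Among all 2417 it was reached by 128 after 2 d and 142 after 3 d, against 132 in control. A control FPKM of at most 10 was listed for 44.7% of the 76 and for 32.3% of the 2417. Most of the ratios were moderate, with 59 entries at 4-fold or more after 3 d, 13 at 10-fold or more and 4 at 20-fold or more.

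The 4 entries at 20-fold or more were a Bowman-Birk inhibitor, a metallothionein, a short entry of unknown function and a putative transmembrane protein. LOC_Os01g03360 (BBTI5), a Bowman-Birk type trypsin inhibitor of the family that blocks serine proteases, was at 301 FPKM after 2 d and 519 FPKM after 3 d, against 5.45 FPKM in control, a ratio of 95.2 after 3 d. LOC_Os01g05650, described as a metallothionein, a small cysteine-rich protein that binds metal ions, was at 11238 FPKM after 2 d and 26219.6 FPKM after 3 d, against 402 FPKM in control. LOC_Os05g05060, described only as an expressed protein, was at 112 FPKM after 2 d and 298 FPKM after 3 d, against 4.81 FPKM in control. In these 3 entries the value after 3 d was between 1.73 and 2.65 times that after 2 d. LOC_Os01g08290, described as a transmembrane protein, was at 53.8 FPKM after 2 d and 83.4 FPKM after 3 d, against 4.03 FPKM in control, which is close to the limit of 4 FPKM. A further entry of the same listed region names this locus with another and was at 18.2 FPKM after 2 d and 25.4 FPKM after 3 d, against 11.7 FPKM in control.

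**Figure D2:**
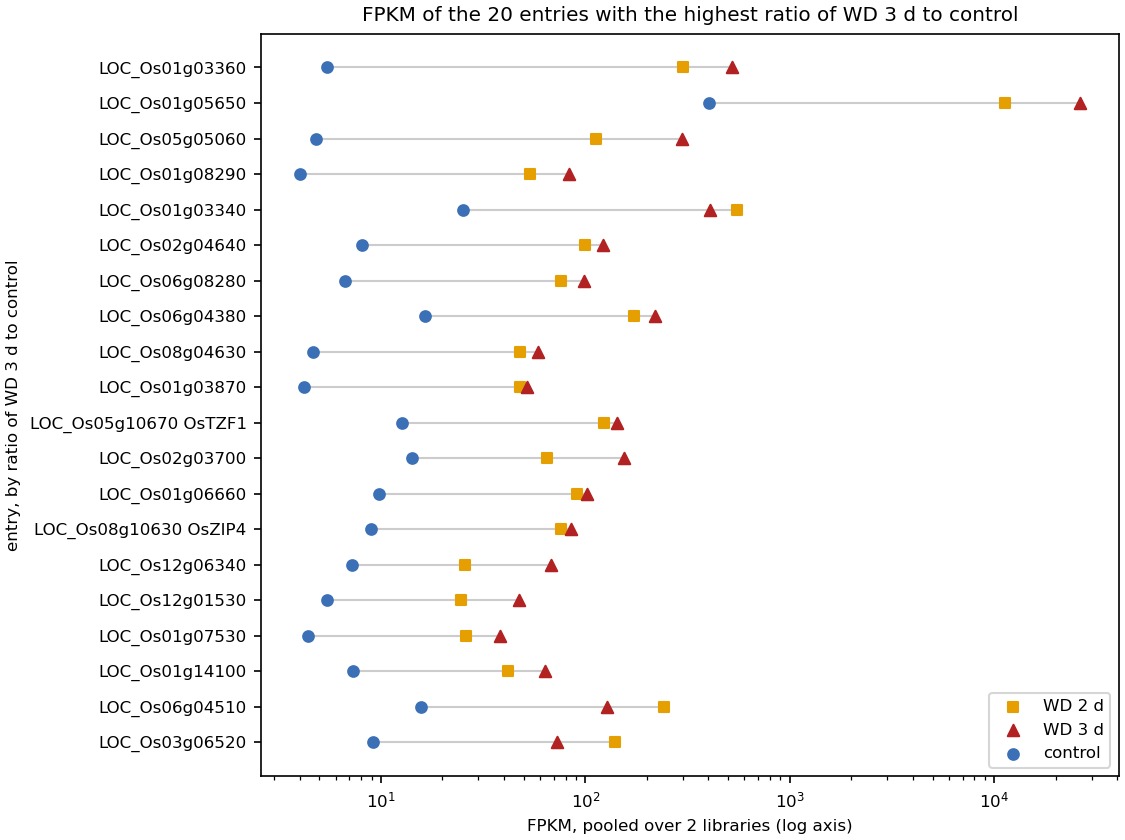
FPKM, pooled over 2 libraries (horizontal log axis), of the 20 entries with the highest ratio of WD 3 d to control, ordered from the top, with squares for WD 2 d, triangles for WD 3 d and circles for control. Both WD values lie right of control in every line by the choice of entries; LOC_Os01g05650 lies furthest right, at 26219.6 FPKM after 3 d.

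Proteins of metal handling made up 4 of the 76 entries, and their FPKM spanned the widest range of any role group. The metallothionein LOC_Os01g05650 alone had the highest FPKM of all entries that name a locus after 2 d and after 3 d, against rank 63 in control. When the 2 entries with the most FPKM, of 91 and 48 bp, are left out of the sums, it held 2.07% of the summed FPKM after 2 d and 4.51% after 3 d, against 0.0791% in control. The other 75 entries together held 2.00% after 2 d and 1.92% after 3 d, against 0.371% in control. Its listed region, on chromosome 1 from 2664481 to 2695085, is shared with LOC_Os01g05640, which was at 173 FPKM after 2 d and 362 FPKM after 3 d, against 3.61 FPKM in control, just under the limit of 4 FPKM. LOC_Os01g05620, in the same region, was at 1.97 FPKM after 2 d and 2.50 FPKM after 3 d, against 5.49 FPKM in control, so the entries of the region differed in direction.

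The other metal entries encode transporters and an iron store. OsMTP1 (LOC_Os05g03780), of the cation efflux family whose members move zinc and other metals out of the cytosol, was at 161 FPKM after 2 d and 149 FPKM after 3 d, against 37.9 FPKM in control. OsZIP4 (LOC_Os08g10630), of the ZIP family that brings zinc into the cytosol, was at 76.1 FPKM after 2 d and 84.8 FPKM after 3 d, against 8.91 FPKM in control. Ferritin-1 (LOC_Os12g01530), which stores iron in plastids, was at 24.6 FPKM after 2 d and 47.4 FPKM after 3 d, against 5.45 FPKM in control. The metallothionein and ferritin were thus about 2 times as high after 3 d as after 2 d, with ratios of 2.33 and 1.93, whereas those of OsMTP1 and OsZIP4 were 0.921 and 1.11.

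Protease inhibitors were represented by 3 entries. LOC_Os01g03340 (BBTI4), also a Bowman-Birk inhibitor, was at 550 FPKM after 2 d and 405 FPKM after 3 d, against 25.2 FPKM in control. It has the same listed region as BBTI5, on chromosome 1 from 1346589 to 1365423, and the neighbours differed in course, with a ratio of 3 d to 2 d of 0.737 for BBTI4 and 1.73 for BBTI5. Members of this family are alike in sequence, and how reads that match several were shared out is not given in the sources used here, so the split between the neighbours is uncertain. LOC_Os01g16430, an inhibitor of cysteine proteases, was at 133 FPKM after 2 d and 149 FPKM after 3 d, against 42.7 FPKM in control.

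Enzymes that remove reactive carbonyls numbered 3, with 151 FPKM as their lowest value under WD. OsGLY1-11.2 (LOC_Os08g09250), a glyoxalase, one of the enzymes that convert toxic methylglyoxal with the help of glutathione, was at 859 FPKM after 2 d and 971 FPKM after 3 d, against 188 FPKM in control. A further glyoxalase, LOC_Os05g07940, was at 151 FPKM after 2 d and 180 FPKM after 3 d, against 25.6 FPKM in control. The aldehyde dehydrogenase LOC_Os02g07760, of a family that oxidises aldehydes to acids, was at 346 FPKM after 2 d and 291 FPKM after 3 d, against 41.3 FPKM in control. Their ratios after 3 d lay between 5.17 and 7.06.

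Glycolysis and sugar metabolism held 4 entries, of which 3 were lower after 3 d than after 2 d, beside 22 of all 76. OsGAPC3 (LOC_Os08g03290), a glyceraldehyde-3-phosphate dehydrogenase of glycolysis, was at 1949 FPKM after 2 d and 1767 FPKM after 3 d, against 400 FPKM in control, the highest level of the 76 after the metallothionein. Enolase (LOC_Os06g04510), which makes phosphoenolpyruvate, was at 243 FPKM after 2 d and 128 FPKM after 3 d, against 15.8 FPKM in control. Sucrose-phosphatase (LOC_Os02g05030), the last enzyme of sucrose synthesis, was at 76.5 FPKM after 2 d and 47.8 FPKM after 3 d, against 15.6 FPKM in control. Enolase and sucrose-phosphatase were thus at 0.527 and 0.625 of their 2 d level after 3 d. The listed region of sucrose-phosphatase covers 306953 bp and holds 14 further named entries over 4 FPKM in some group. The remaining entry, LOC_Os01g07530, an uncharacterized glycosyltransferase, was at 26.1 FPKM after 2 d and 38.4 FPKM after 3 d, against 4.41 FPKM in control.

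Amino acid metabolism, as sorted by words, accounted for 7 entries, with a median log2 ratio of 2.18 after 2 d and 2.41 after 3 d. The descriptions of LOC_Os01g06660, LOC_Os05g01760 and LOC_Os08g03870 do not state that the protein acts on an amino acid, so their place in the group is uncertain. The largest ratio was that of the aminomethyltransferase LOC_Os06g04380, a type of enzyme in glycine cleavage, at 173 FPKM after 2 d and 219 FPKM after 3 d, against 16.4 FPKM in control; the entry lists a further locus. LOC_Os01g06660, described as a thiamine pyrophosphate enzyme, was at 90.7 FPKM after 2 d and 102 FPKM after 3 d, against 9.83 FPKM in control. The beta chain of tryptophan synthase (LOC_Os08g04180), which catalyses the last step to tryptophan, was at 262 FPKM after 2 d and 245 FPKM after 3 d, against 41.3 FPKM in control.

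Late enzymes of tyrosine breakdown were among the 76. Homogentisate 1,2-dioxygenase (LOC_Os06g01360), which opens the ring, was at 53.9 FPKM after 2 d and 82.6 FPKM after 3 d, against 16.1 FPKM in control. Fumarylacetoacetase (LOC_Os02g10310), the last enzyme of the route, was at 175 FPKM after 2 d and 203 FPKM after 3 d, against 38.5 FPKM in control. LOC_Os05g01760, described as lysine ketoglutarate reductase trans-splicing related 1, had a ratio after 3 d of 3.10. LOC_Os08g03870, named for the thiol dioxygenase that oxidises cysteamine in mammals, had a ratio after 3 d of 5.33.

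Transcription and chromatin formed the largest group with a named role, though the size of a group depends on the words used to sort. The share of such genes among all expressed entries was not determined. The group held 10 entries. Of these, 7 were higher after 3 d than after 2 d, beside 71.1% of all 76 entries. LOC_Os02g04640, with a Myb-like DNA-binding domain, was at 99.9 FPKM after 2 d and 122 FPKM after 3 d, against 8.05 FPKM in control, the highest ratio of the group. OsTZF1 (LOC_Os05g10670), a CCCH zinc finger protein, was at 124 FPKM after 2 d and 143 FPKM after 3 d, against 12.7 FPKM in control. OsDOS (LOC_Os01g09620), a CCCH protein named for delay of the onset of senescence, was at 85.7 FPKM after 2 d and 113 FPKM after 3 d, against 17.7 FPKM in control. The Myb-like gene was 12.4-fold and OsTZF1 9.70-fold above control already after 2 d, and neither differed by more than 1.22 times between the WD times.

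A homeodomain factor and an elongation factor differed more between the WD times. The BEL1-like homeodomain factor LOC_Os12g06340 was at 25.8 FPKM after 2 d and 68.3 FPKM after 3 d, against 7.24 FPKM in control, and a further entry of this locus in the same region was at 4.22 FPKM after 2 d and 9.84 FPKM after 3 d, against 1.98 FPKM in control. Transcription elongation factor 1 (LOC_Os02g04160), a protein of elongating RNA polymerase, was at 69.4 FPKM after 2 d and 140 FPKM after 3 d, against 21.3 FPKM in control. Each of these 3 entries was over 2 times as high after 3 d as after 2 d. Argonaute (LOC_Os01g16870), of the family that carries small RNAs, was at 126 FPKM after 2 d and 147 FPKM after 3 d, against 38.0 FPKM in control. The Sir2 family regulator LOC_Os12g07950, of NAD-dependent deacetylases, had a ratio after 3 d of 5.33, the histone-lysine methyltransferase ATX5 (LOC_Os01g11960) of 3.32, the helix-loop-helix protein LOC_Os01g06640 of 4.39 and the MYB factor LOC_Os08g06240 of 3.10.

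The 4 protein kinases ranged in ratio after 3 d from 4.45 to 14.7. LOC_Os06g08280 was at 75.7 FPKM after 2 d and 98.0 FPKM after 3 d, against 6.69 FPKM in control. LOC_Os03g03510, of the calcium/calmodulin-dependent and SNF1-like class, was at 90.2 FPKM after 2 d and 123 FPKM after 3 d, against 27.6 FPKM in control. LOC_Os06g06760 and the DUF26 kinase LOC_Os05g03920 were nearly level between the times, with ratios of 3 d to 2 d of 1.04 and 0.991. The DnaK family chaperone LOC_Os03g02260 was at 95.03 FPKM after 2 d and 114 FPKM after 3 d, against 22.2 FPKM in control. LOC_Os03g05270, a RING finger protein of a kind that often acts in ubiquitination, was at 70.3 FPKM after 2 d and 79.0 FPKM after 3 d, against 14.5 FPKM in control.

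All 4 entries grouped as membrane transport and stress proteins were lower after 3 d than after 2 d, against 22 of the 76. This rests on the grouping, since further transport entries were placed in other groups. Of those, OsZIP4, the BT1 family carrier LOC_Os01g14100 and the ion channel entry LOC_Os08g03430 were higher after 3 d. Their ratios of 3 d to 2 d were 1.11, 1.51 and 1.198. OsMTP1 (LOC_Os05g03780), also in another group, was lower after 3 d, with a ratio of 0.921. The sulfate transporter LOC_Os03g06520 was at 139 FPKM after 2 d and 72.3 FPKM after 3 d, against 9.13 FPKM in control, the lowest ratio of 3 d to 2 d of the 76, at 0.521. The stress responsive protein LOC_Os01g01450 was at 641 FPKM after 2 d and 360 FPKM after 3 d, against 59.3 FPKM in control. OsLti6b (LOC_Os05g04700), a small hydrophobic membrane protein of a family induced by low temperature, was at 1163 FPKM after 2 d and 980.3 FPKM after 3 d, against 196 FPKM in control. It shares its listed region, on chromosome 5 from 2217557 to 2221022, with the undescribed LOC_Os05g04690, which was at 29.9 FPKM after 2 d and 32.8 FPKM after 3 d, against 7.32 FPKM in control. The translocator-related entry LOC_Os08g01410 lists 3 loci and had a ratio of 3.86 after 3 d.

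Lipid enzymes and carriers had the smallest median of any role group after 3 d, a log2 ratio of 1.83. The acetyl-CoA acetyltransferase LOC_Os01g02020 was at 66.2 FPKM after 2 d and 69.6 FPKM after 3 d, against 19.7 FPKM in control. The ratios after 3 d were 3.60 for the CDP-alcohol phosphatidyltransferase LOC_Os06g10280, 3.39 for the acyl-CoA-binding protein LOC_Os06g02490 and 6.06 for the serine esterase LOC_Os08g04810.

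**Figure D3:**
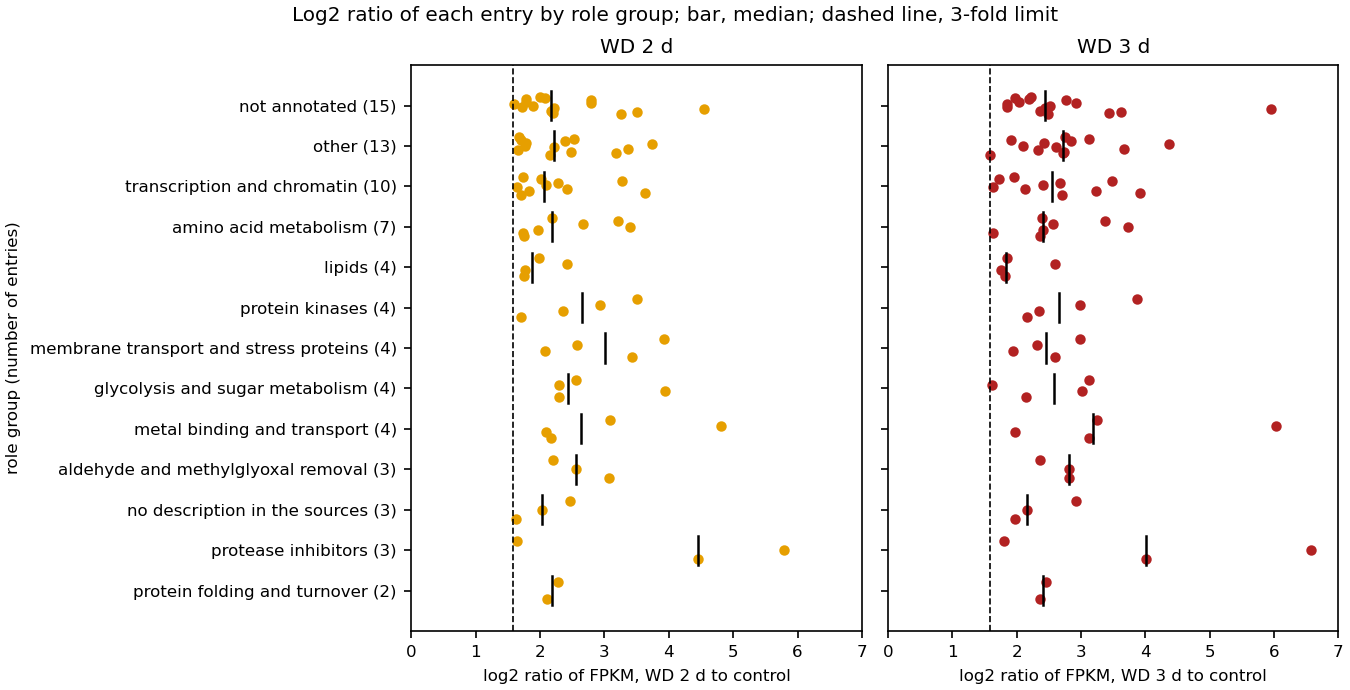
Log2 ratio of FPKM to control (horizontal axis) of each of the 76 entries by role group (vertical axis, number of entries in brackets) after 2 d (left) and 3 d (right) of WD, with a bar at the group's median and a dashed line at the limit of 3-fold. The protease inhibitors have the highest group median at both times, a log2 ratio of 4.45 after 2 d and 4.01 after 3 d, from 3 entries.

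Of 13 entries with other descriptions, 11 were higher after 3 d than after 2 d. Most of all 76 entries, 54 or 71.1%, were also higher after 3 d, so this count alone says little about the group. LOC_Os06g02420, named after the ozone-induced Arabidopsis gene ATOZI1, was at 313 FPKM after 2 d and 227 FPKM after 3 d, against 34.4 FPKM in control, and was thus lower at the later time. The C2 domain protein LOC_Os01g14050 was at 156 FPKM after 2 d and 181 FPKM after 3 d, against 48.1 FPKM in control. The dynein light chain type entry LOC_Os01g15260 was at 85.8 FPKM after 2 d and 180 FPKM after 3 d, against 26.8 FPKM in control. A second entry names the same locus in the same listed region and was at 13.8 FPKM after 2 d and 20.2 FPKM after 3 d, against 14.5 FPKM in control, so the entries of this locus differed in their ratios. LOC_Os08g04630, an external NADH dehydrogenase of mitochondria, was at 47.6 FPKM after 2 d and 58.7 FPKM after 3 d, against 4.64 FPKM in control. Among the rest, the ratio after 3 d was 8.68 for the BT1 family carrier LOC_Os01g14100, 7.21 for the adenylate kinase LOC_Os06g10200, which balances adenine nucleotides, and 6.12 for the WD domain protein LOC_Os05g05210. The remaining 5 had ratios after 3 d between 3.005 and 6.68.

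Descriptions without a function covered 15 entries, of which 12 were higher after 3 d than after 2 d, beside 71.1% of all 76. Besides LOC_Os05g05060, the highest was LOC_Os02g03700, at 65.2 FPKM after 2 d and 154 FPKM after 3 d, against 14.2 FPKM in control. LOC_Os01g03870 was at 48.1 FPKM after 2 d and 52.1 FPKM after 3 d, against 4.22 FPKM in control. LOC_Os08g10500, which has no description, was at 93.5 FPKM after 2 d and 128 FPKM after 3 d, against 16.9 FPKM in control. LOC_Os06g01195, also without one, was at 18.9 FPKM after 2 d and 24.1 FPKM after 3 d, against 6.15 FPKM in control. The rest of the 15 reached between 21.1 and 61.0 FPKM after 3 d.

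The choice of entries set no order between the WD times, but its lower bound on both ratios limited how far an entry could be lower at either time and still be taken, which does not apply to the 2417. The shares of the 2417 below are thus given only as background. After 3 d, FPKM was higher than after 2 d in 54 of the 76 entries (71.1%) and lower in 22, beside 46.7% higher among all 2417 entries. The median log2 ratio of 3 d to 2 d was 0.22 in the 76 and -0.04 in the 2417. Between the times, 57 of the 76 entries differed by less than 1.5 times, 14 were at least 1.5 times as high after 3 d as after 2 d, where the share over all 2417 was 8.65%, and 5 were at least 1.5 times as high after 2 d, beside 20.5%. The 5 highest ratios of 3 d to 2 d were those of LOC_Os05g05060 (2.65), the BEL1-like factor LOC_Os12g06340 (2.64), LOC_Os02g03700 (2.36), the metallothionein LOC_Os01g05650 (2.33) and the dynein light chain entry LOC_Os01g15260 (2.09). The 5 lowest were those of the sulfate transporter LOC_Os03g06520 (0.521), enolase LOC_Os06g04510 (0.527), the stress responsive LOC_Os01g01450 (0.562), the hypothetical LOC_Os03g03340 (0.592) and sucrose-phosphatase LOC_Os02g05030 (0.625).

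**Figure D4:**
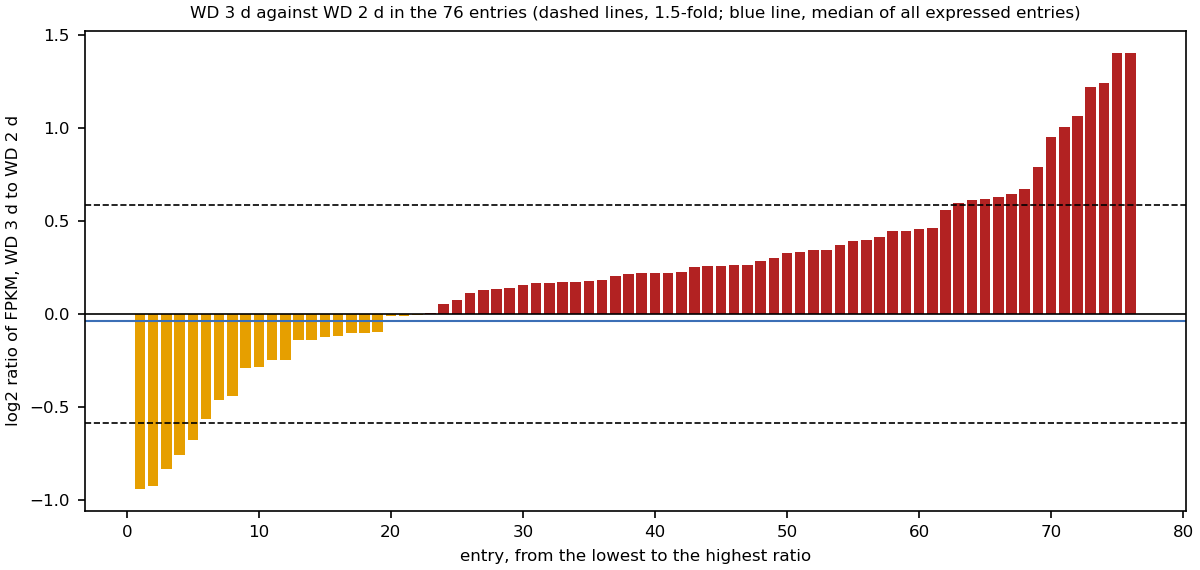
Log2 ratio of FPKM after 3 d to FPKM after 2 d of WD (vertical axis) for each of the 76 entries, ordered from lowest to highest (horizontal axis), red where the value after 3 d is higher and orange where it is lower. Dashed lines mark 1.5-fold and the blue line the median of the 2417 expressed entries, -0.04; 54 bars lie above 0 and 22 below.

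Entries past the same limits elsewhere in the genome had like medians. The 289 of them were at a median log2 ratio of 2.25 after 2 d and 2.49 after 3 d, and 68.2% were higher after 3 d than after 2 d. Entries of the same stretches that were at most 4 FPKM in control, but over 4 FPKM and at least 3-fold higher at both times, numbered 83. Of these, 56.6% were higher after 3 d than after 2 d, and their median FPKM was 15.7 after 2 d and 17.2 after 3 d, against 1.05 in control. The median log2 ratio of the 74 of them listed above 0 in control was 4.14 after 2 d and 4.49 after 3 d, where that of the 76 was 2.22 and 2.47. The limits on control FPKM and on both ratios bear on these levels and ratios, so they only describe the sets. The 289 entries passed the same limits as the 76, which by itself favours like medians.

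Along the chromosomes, the share of expressed entries that belonged to the 76 was between 1.5% on chromosome 12, with 3 of 200, and 4.93% on chromosome 1, with 22 of 446. The listed region had a median of 6109 bp for the 76 and 6285 bp for the 2417. In 5 pairs, members followed each other with no other expressed entry between them. BBTI4 with BBTI5 and OsLti6b with LOC_Os05g04690 share a region. The helix-loop-helix gene LOC_Os01g06640 lies 3085 bp before the listed region of LOC_Os01g06660, which is shared with LOC_Os01g06650. LOC_Os05g05030 lies 14284 bp before LOC_Os05g05060, and LOC_Os06g10200 lies 50442 bp before LOC_Os06g10280. In 4 of the 5 pairs, 1 member was higher and the other lower after 3 d than after 2 d, the exception being LOC_Os05g05030 with LOC_Os05g05060. Of all 76 entries, 54 were higher and 22 lower, so a count from 5 pairs says little about neighbours. LOC_Os05g05030 was at 18.6 FPKM after 2 d and 21.1 FPKM after 3 d, against 4.12 FPKM in control, a ratio of 3 d to 2 d of 1.13 where that of LOC_Os05g05060 was 2.65.

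The listed region of 28 of the 76 entries (36.8%) overlaps a further named entry over 4 FPKM in some group, beside 24.5% of the 2417. The library kit is not stated to keep strand, so reads of overlapping genes on opposite strands cannot be told apart. Without the 28 entries, the median log2 ratio of the remaining 48 was 2.20 after 2 d and 2.43 after 3 d. Further loci were listed in 8 of the 76 entries.

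At the limit on the ratio, the 3 entries just inside were LOC_Os08g01150 with a lower ratio of 3.005, LOC_Os02g06390 with 3.01 and sucrose-phosphatase LOC_Os02g05030 with 3.06. Just outside were LOC_Os05g02050 with 2.997, LOC_Os03g07130 with 2.99 and LOC_Os06g11790 with 2.98. At the limit on control FPKM, LOC_Os03g03340 with 4.008, LOC_Os01g08290 with 4.03 and LOC_Os05g03920 with 4.05 FPKM were just inside. LOC_Os03g03360 with 3.90, LOC_Os01g05640 with 3.61 and LOC_Os01g15000 with 3.39 FPKM in control were just outside.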

How the data were processed

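Root RNA was sequenced as paired-end reads from TruSeq libraries. The authors trimmed the reads with Trim Galore and cutadapt, mapped them with TopHat to IRGSP 1.0 and ran Cuffdiff with RGAP gene features; the sources used here give neither versions nor the scaling between libraries. The deposited values are FPKM, 1 per group and entry, pooled over libraries; the number of columns with single-library values is 0. The tables also hold the authors' fold changes, test statistics, p-values and q-values, none of which was used. Positions are those of the region tested together, as deposited, and entries can share one.

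Ratios were taken without a pseudocount. Members, role groups and naming rules were chosen with earlier results of these data known. Named were the 10 highest ratios of 3 d to control, the 5 highest FPKM after 3 d, the 5 highest and 5 lowest ratios of 3 d to 2 d, genes with symbols, up to 4 of each role group by FPKM, neighbours and entries at the limits; a few further members are named that were chosen after their values were seen. Roles come from RGAP descriptions in the study's supplements, which cover genes called there, so pathway lists with non-members, and markers of root and leaf, were not analysed here. No sequences were used here. The selection was tested on simulated data. Python 3.11.15, pandas 2.3.3, numpy 2.4.6, scipy 1.17.1 and matplotlib 3.10.9 were used.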

Additional observations from a re-analysis of the deposited data

How the results depend on the processing

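No paired analysis was possible because the deposited columns carry no replicate, and no library could be left out for the same reason. The number of entries was 178 with a ratio limit of 2 and 47 with a limit of 4, 118 with control over 1 FPKM and 42 with control over 10 FPKM. The limit of 2 gave medians of 1.54 (2 d) and 1.82 (3 d) on the log2 scale. An alternative chosen after seeing the data, keeping regions free of other named entries, left 48. The other counts lay between 65, with the FPKM sums of the groups made equal without the 2 highest entries, and 82, with ratios centred on the median; making the sums equal kept 65 of the 76 entries at 3-fold and all 76 at 2-fold. The remaining medians moved by less than 1.5 times. The share higher after 3 d than after 2 d lay between 66.7% and 75% over all settings run. With 1 added to each FPKM, with centring and with equal sums, shares and medians are those of the same 76 entries, whereas the counts are of entries chosen anew. The single log2 ratios and role group medians moved by less than 1.5 times with 1 added to each FPKM, with centring and with equal sums. They kept their sign, which the 3-fold limit on every entry left little room to change. With values pooled, neither library spread nor counting error can be given.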
